A study of Mus musculus with 374 samples.

Results

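Pan-leukocyte surface glycoproteins are described here by 7 genes, Ptprc, Ptprcap, Cd44, Spn, Cd52, Cd53 and Cd37, which were chosen by name among the 19829 mouse genes counted. All 7 were found in the count table. Single cells of 5 populations were sorted from 1 female C57BL/6 mouse, aged 10-13 weeks, into 1 plate of 384 wells, and their transcripts were counted by CEL-seq2, which tags the 3′ end of each polyadenylated RNA with a unique molecular identifier (UMI). The bone marrow gave 95 progenitor/stem cells (Lin-, Kit+ and Sca1+, labelled LSK), 44 B lymphocytes (B220+, low forward scatter), 96 granulocytes (Mac1+ and Gr1+) and 96 erythroblasts (Ter119+ and CD44+, mid to high forward scatter). The thymus gave 43 T lymphocytes (CD3+, low forward scatter). The fluorescence of each cell at the sort was recorded with its well.

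These molecules coat nearly every nucleated blood cell. CD45, the product of Ptprc, is a receptor-type tyrosine phosphatase that acts on Src family kinases, and its form B220 marks B lymphocytes. CD43 (Spn) and CD44 are heavily glycosylated adhesion molecules tied to the cortical cytoskeleton, CD52 is a short glycosylated peptide held by a GPI anchor, and CD53 and CD37 are tetraspanins, proteins that span the membrane repeatedly and gather partners in the membrane. Red cell precursors lose most leukocyte surface molecules as they mature and take on Rh proteins and transferrin receptor, and their CD44 falls with maturation.

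UMIs were summed over the wells of a population and scaled to 1000000 UMIs on mouse genes (CPM). The sums ranged from 135808 UMIs in the B lymphocytes to 834812 in the progenitor/stem cells, so that 3 UMIs, the floor used for a gene at 0, stand for 22.1 and 3.59 CPM. Since all cells came from 1 mouse, each population is 1 sample with no replicate. No p-value was computed, and all intervals are 95% intervals that cover counting error only. Markers were highest where the labels put them: 7 erythroblast markers took 24.7% of the UMIs of the erythroblasts and 1.33% to 2.92% elsewhere, and 8 granulocyte markers took 15.2% of the granulocyte UMIs. Some wells stood apart from their labels. One B lymphocyte well (A8) had 11.5% of its UMIs on granulocyte markers, another (B2) had the CD3 fluorescence of a T lymphocyte, and 13 granulocyte wells had under 1% on granulocyte markers. Erythroblast markers reached 16.9% of the UMIs in a progenitor/stem cell well, 18.6% in a B lymphocyte well and 12.0% in a T lymphocyte well. The medians of these populations were 1.09%, 1.87% and 1.74%.

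In the mouse genome (GRCm38, GENCODE M21), the genes lie apart. Ptprc is at chr1:138062861-138175708, Cd44 at chr2:102811141-102901665, Cd53 at chr3:106759921-106790149, Cd52 at chr4:134082448-134095082, Cd37 at chr7:45233632-45239115 and Spn at chr7:127132232-127137823, all on the minus strand. Ptprcap is at chr19:4153604-4156751 on the plus strand. It shares exonic sequence with Coro1b on the same strand and with Rps6kb2 on the other, so its counts are the least certain. Exons of Cd52 overlap Crybg2 and exons of Cd37 overlap Tead2, each on the opposite strand, and these neighbours held 1 and 11 UMIs in all wells together. Whether strand was used in the counting is not given in the sources used here.

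RefSeq promoter windows (GRCm38.p6, 250 bases before to 50 after a start) were found for 5 of the 7 genes, with no entry for Cd52 or Ptprcap. The stretches before the starts of Cd44, Spn and Cd53, for which RefSeq and GENCODE place the start at the same base, are shown because these genes belong to a set that was low together in erythroblasts. All are written 5′ to 3′ on the minus strand, and capitals mark AGGAAG or its reverse complement CTTCCT, the core letters bound by many ETS factors.
Cd44, chr2:102901666-102901915: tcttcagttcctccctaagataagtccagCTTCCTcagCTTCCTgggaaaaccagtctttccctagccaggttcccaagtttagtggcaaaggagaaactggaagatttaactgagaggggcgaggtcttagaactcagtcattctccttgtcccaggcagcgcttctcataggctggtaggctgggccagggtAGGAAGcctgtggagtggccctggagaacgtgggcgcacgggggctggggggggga
Spn, chr7:127137824-127138073: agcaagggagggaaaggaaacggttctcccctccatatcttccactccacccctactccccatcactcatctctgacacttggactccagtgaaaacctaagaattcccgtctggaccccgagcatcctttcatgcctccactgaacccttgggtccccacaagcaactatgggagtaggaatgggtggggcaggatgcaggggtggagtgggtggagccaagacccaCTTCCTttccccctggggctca
Cd53, chr3:106790150-106790399: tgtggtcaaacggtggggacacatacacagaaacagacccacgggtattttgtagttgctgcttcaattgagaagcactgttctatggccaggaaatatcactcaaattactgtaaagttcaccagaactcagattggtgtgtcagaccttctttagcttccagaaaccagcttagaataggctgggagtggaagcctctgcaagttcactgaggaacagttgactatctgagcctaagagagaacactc

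Searched on both strands over the whole window, AGGAAG occurred 3 times for Cd44, 2 times for Spn, once for Cd37 and once for Cd53, where the match lay after the start. It occurred at 3 sites before a start of Ptprc, in overlapping windows, one of the sites lying in both. Of 32851 mouse promoter windows of this length, 35.4% held it. AGATAA, the letters bound by GATA factors, occurred in a Ptprc window and in that of Cd44 and in 11.2% of all windows, TGTGGT (RUNX factors) in that of Cd53 and in 16.8%, and TATAAA (the TATA box) in a Ptprc window and in 13.6%. These are matches of letters only.

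Ptprc was found in every population and was highest in the thymic T lymphocytes. T lymphocytes had 2904 CPM (interval 2673 to 3150), granulocytes 1489 CPM (1373 to 1613), B lymphocytes 692 CPM (559 to 847), progenitor/stem cells 502 CPM (455 to 552) and erythroblasts 61.5 CPM (44.1 to 83.4). Every step in this order was larger than counting error, the smallest being that from the progenitor/stem cells to the B lymphocytes (1.38-fold, 1.09 to 1.73). In single wells the T lymphocytes held 1 to 32 Ptprc UMIs with a median of 12, and the erythroblasts 0 to 3 with a median of 0. A Ptprc UMI was seen in 100% of the T lymphocyte wells and 32.3% of the erythroblast wells. After each well was thinned to 1000 UMIs, the shares were 88.1% and 8.42%.

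Ptprcap, which encodes a small transmembrane protein bound to CD45, did not follow Ptprc. It was highest in the lymphocytes, with 810 CPM (666 to 976) in the B and 699 CPM (588 to 824) in the T lymphocytes, levels whose ratio did not differ from 1 beyond counting error (1.16-fold, 0.895 to 1.50). The progenitor/stem cells had 420 CPM (378 to 467). In the granulocytes it was at 59.5 CPM (38.1 to 88.5), 7.07-fold (4.67 to 11.2) below the progenitor/stem cells. The erythroblasts had 39.0 CPM (25.5 to 57.1). The granulocytes, the second highest population for Ptprc, were thus close to the erythroblasts for Ptprcap (1.53-fold higher, 0.838 to 2.76), and the same share of wells, 20.8%, held a UMI of it in both. For each Ptprc UMI there were 1.17 Ptprcap UMIs (0.880 to 1.56) for B lymphocytes, 0.838 (0.725 to 0.968) for progenitor/stem cells, 0.634 (0.372 to 1.06) for erythroblasts, 0.241 (0.199 to 0.290) for T lymphocytes and 0.0399 (0.0254 to 0.0600) for granulocytes. Reads of a shared exon with Coro1b could enter these counts, and their part was not tested.

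**Figure D1:**
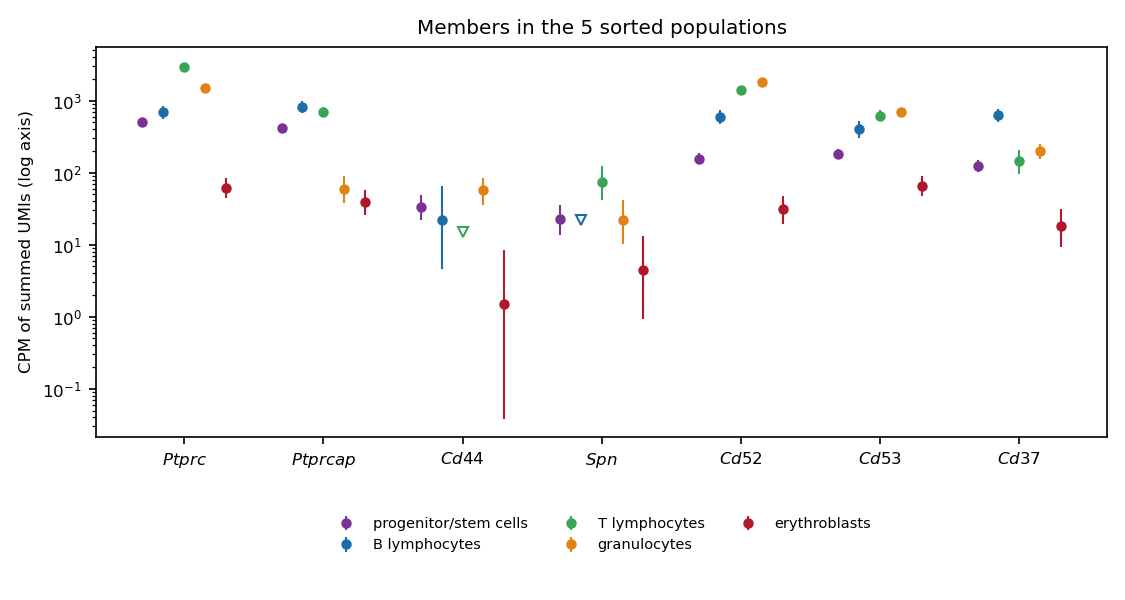
Level of each of the 7 genes in the 5 populations, as CPM of summed UMIs on a log axis, with 95% exact Poisson intervals that cover counting error only. Open triangles mark the level of 3 UMIs where none was counted, as for Cd44 in the T lymphocytes (15.0 CPM). The erythroblasts are lowest for Ptprc, Ptprcap, Cd52, Cd53 and Cd37.

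The 2 sialylated adhesion molecules were sparsely counted. Cd44, the hyaluronan receptor, had 23 UMIs in granulocytes (57.0 CPM, 36.1 to 85.5), 28 in progenitor/stem cells (33.5 CPM, 22.3 to 48.5), 3 in B lymphocytes (22.1 CPM, 4.56 to 64.6), 1 in erythroblasts (1.50 CPM, 0.0380 to 8.36) and 0 in T lymphocytes. For the T lymphocytes the floor of 3 UMIs stands for 15.0 CPM. The granulocytes and progenitor/stem cells did not differ beyond counting error (1.70-fold, 0.935 to 3.06), nor did the latter and the B lymphocytes. Spn was highest in the T lymphocytes, with 15 UMIs (74.9 CPM, 41.9 to 123), 3.29-fold (1.56 to 6.83) above the progenitor/stem cells. Progenitor/stem cells with 19 UMIs (22.8 CPM) and granulocytes with 9 (22.3 CPM) could not be told apart for Spn. It had 3 UMIs in erythroblasts (4.50 CPM, 0.928 to 13.1) and 0 in B lymphocytes, where the floor of 3 UMIs stands for 22.1 CPM. No well held more than 3 Cd44 UMIs or more than 4 Spn UMIs.

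Cd52, which encodes the GPI-anchored peptide, and the tetraspanin gene Cd53 had the same order of populations. For Cd52, granulocytes had 1824 CPM (1695 to 1961), T lymphocytes 1387 CPM (1229 to 1560), B lymphocytes 589 CPM (467 to 733), progenitor/stem cells 156 CPM (130 to 185) and erythroblasts 31.5 CPM (19.5 to 48.1). All steps exceeded counting error. Cd53 had 706 CPM (627 to 793), 619 CPM (515 to 738), 405 CPM (305 to 527), 181 CPM (153 to 212) and 66.0 CPM (48.0 to 88.6) in the same order, and its granulocytes and T lymphocytes could not be told apart (1.14-fold, 0.921 to 1.42). A granulocyte well held 0 to 29 Cd52 UMIs with a median of 7, whereas an erythroblast well held 0 to 2 with a median of 0. A UMI of Cd53 was seen in 36.5% of erythroblast wells, the highest share of the 7 genes there, and in 2.11% after thinning.

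Cd37, a tetraspanin gene known for its high level in mature B lymphocytes, was highest in these B lymphocytes. It had 626 CPM (500 to 774) there, 3.16-fold (2.30 to 4.34) above the 198 CPM (157 to 247) of the granulocytes. The T lymphocytes followed with 145 CPM (96.9 to 208) and the progenitor/stem cells with 125 CPM (102 to 151), and neither step differed from 1 beyond counting error. The erythroblasts had 18.0 CPM (9.30 to 31.4). Of the B lymphocyte wells 86.4% held a Cd37 UMI, against 44.2% of the T lymphocyte and 11.5% of the erythroblast wells.

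Leaving out well A8 moved the B lymphocyte level of Cd52 to 526 CPM and that of Ptprc to 670 CPM, and the well held no UMI of Ptprcap, Cd44 or Spn among its 4531 mouse UMIs. Leaving out the 13 granulocyte wells with few granulocyte markers, a choice made after the data were seen, moved Cd44 in the granulocytes to 68.8 CPM and Cd52 to 1922 CPM. Neither changed the order of the populations for the highest and the lowest level. That order held for Ptprc, Cd52, Cd53, Cd37 and Spn under every scaling and choice of wells tried. Per well and per 1000 UMIs of the spiked ERCC RNA, the highest level of Ptprcap and of Cd44 was that of the progenitor/stem cells, which have the most UMIs per well, and the lowest of Ptprcap that of the granulocytes. After thinning, Cd44 was also highest in the progenitor/stem cells.

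The loss in erythroblasts was seen across the set. Against the progenitor/stem cells, all 7 genes were lower with an interval that left out 1, and 6 of 7 were 4-fold or more lower, where 21.6% of the 4792 genes with at least 50 UMIs in these populations were. Cd44 and Spn had fewer UMIs than that, and of the 5 members with as many, 4 were 4-fold or more lower. The median of the 7 was 6.92-fold lower, a log2 ratio of -2.79, against a median of -0.73 over all those genes. Ptprcap was lower by 10.8-fold (7.23 to 16.7), Ptprc by 8.16-fold (5.91 to 11.5), Cd37 by 6.92-fold (3.80 to 13.8), Spn by 5.06-fold (1.49 to 26.7) and Cd52 by 4.94-fold (3.10 to 8.26). Cd44 was lower by 22.4-fold, with an interval from 3.70 to 914 that rests on a single erythroblast UMI. Cd53 was the exception at 2.74-fold (1.95 to 3.93). The count depended on scaling: 3 of 7 genes were 4-fold lower with TMM factors and 2 of 7 with scran size factors, and the median of all genes then moved to 0.13 and 0.28. The distance of the 7 genes from that median, -2.06 on the log2 scale, is the same under both by construction, since such factors shift every gene alike.

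Against the lymphocytes and granulocytes the median differences were wider, as far as the counts reached. Cd44 and Spn against the B lymphocytes, and Cd44 against the T lymphocytes, had at most 3 UMIs on both sides and were given no ratio. All 5 genes left were 4-fold or more lower than in the B lymphocytes (7.62% of 2324 genes were), and all 6 left were so against the T lymphocytes (11.2% of 2609 genes). Against the granulocytes 6 of 7 were (18.5% of 3057 genes), with Ptprcap as the exception. Of the members with at least 50 UMIs, 5 of 5, 4 of 4 and 4 of 5 were. The median log2 ratios were -4.23, -4.11 and -3.46, where the medians of all genes were 0.35, 0.02 and 0.55. The largest single differences were those of Cd52 against the granulocytes, 57.9-fold (37.6 to 94.1), and of Ptprc against the T lymphocytes, 47.2-fold (34.4 to 66.5). None of the 7 genes was 4-fold or more higher in erythroblasts than in any other population, where 8.26% (over progenitor/stem cells), 17.3% (B lymphocytes), 17.7% (T lymphocytes) and 20% (granulocytes) of genes were. The 4 comparisons share the same erythroblasts.

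**Figure D2:**
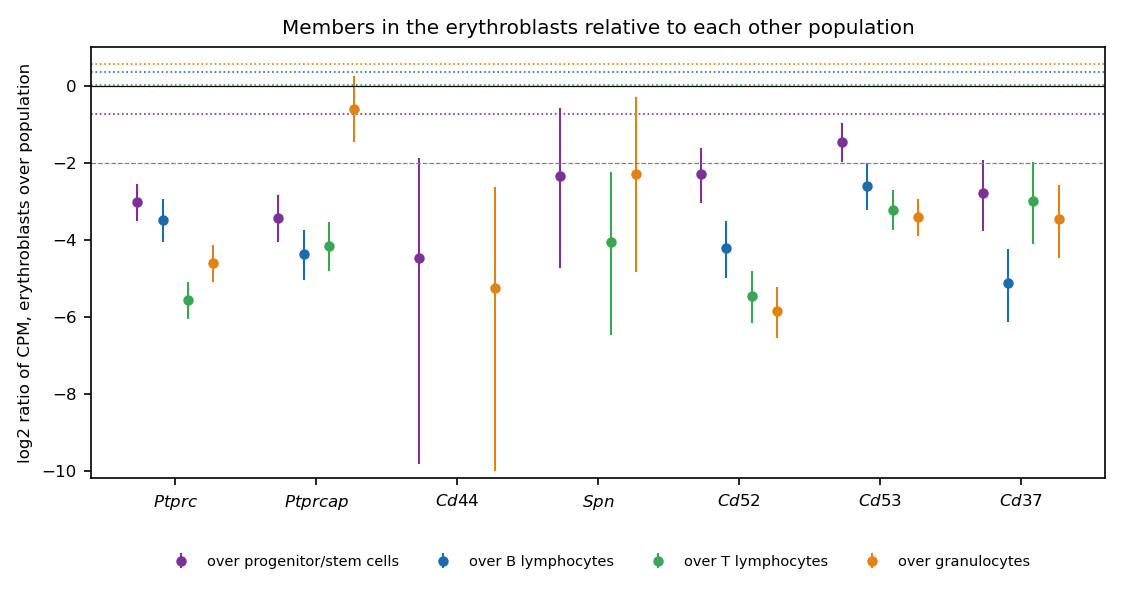
Log2 ratio of CPM in erythroblasts over each other population for the 7 genes, with 95% exact conditional binomial intervals, lower ends beyond the axis being clipped. Dotted lines give the median of all genes with at least 50 UMIs (-0.73 against the progenitor/stem cells) and dashed lines a 4-fold difference. Ptprcap against the granulocytes is the one ratio whose interval reaches above 0.

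Among the lymphocytes and granulocytes the set did not move as one. Over the progenitor/stem cells, 1 of 7 genes was 4-fold or more higher in the B lymphocytes (Cd37, where 2.43% of all genes tested were), 2 of 7 in the T lymphocytes (Ptprc and Cd52, 2.76%) and 1 of 7 in the granulocytes (Cd52, 6.51%). In the other direction, Ptprcap in the granulocytes was 4-fold or more lower (18.9% of genes were), and no member was so in the B lymphocytes (5.27%) or the T lymphocytes (5.99%).

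Summed over the 7 genes, the erythroblast wells held 148 UMIs, or 222 CPM (188 to 261), against 1440 CPM for progenitor/stem cells, 3144 for B lymphocytes, 4357 for granulocytes and 5828 for T lymphocytes. An erythroblast well held 0 to 7 of these UMIs with a median of 1, a T lymphocyte well 1 to 58 with a median of 25. The erythroblast UMIs were spread over 75 of 96 wells, and without the 2 wells with the most (7 each) the level was 204 CPM. With wells thinned to 1000 UMIs, 16.8% of the erythroblast wells held any, against 75.8% to 97.9% in the other populations.

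What remained in the erythroblasts was set beside marker genes of the other populations. The 7 genes together stood at 3.81% (3.19 to 4.52) of their highest level, that in the T lymphocytes. The B lymphocyte markers stood at 1.27% (1.00 to 1.59) of their own highest level, the T lymphocyte markers at 0.985% (0.640 to 1.45), the granulocyte markers at 1.13% (1.07 to 1.20) and the progenitor/stem cell markers at 3.83% (3.07 to 4.72). Marker transcripts of all 4 other populations were therefore present in these wells at a low level, and single markers with at least 50 UMIs reached 6.24% (Cd4, 2.94 to 12.1). Cd52 at 1.73% (1.06 to 2.66), Ptprc at 2.12% (1.50 to 2.91), Cd44 at 2.63%, Cd37 at 2.88%, Ptprcap at 4.81% and Spn at 6.01% all lay within the range of the single markers. The top of that range, Cd4, rests on 11 erythroblast UMIs. Relative to the highest level, the interval of the 7 genes together lay above those of the B lymphocyte, T lymphocyte and granulocyte lists. It overlapped that of the progenitor/stem cell list. Relative to the other 4 populations pooled, the 7 genes stood at 7.67% (6.47 to 9.04). The B lymphocyte list was then higher at 11.5% (9.09 to 14.4), and the T lymphocyte list overlapped at 7.07% (4.59 to 10.4). The progenitor/stem cell list also overlapped at 6.91% (5.54 to 8.52), and the granulocyte list was lower at 4.18% (3.94 to 4.44). Lying within the range of the single markers does not tell whether these UMIs are expression. Cd53 at 9.34% (6.64 to 12.9) was above the value of every such marker, with an interval that overlaps that of Cd4. This depended on the denominator: relative to the other 4 populations pooled, Cd53 stood at 16.9% (12.1 to 23.0), below Cd4 at 31.7% (15.2 to 59.7) and Vpreb3 at 22.5% (13.8 to 34.9). The source of these UMIs was not tested.

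**Figure D3:**
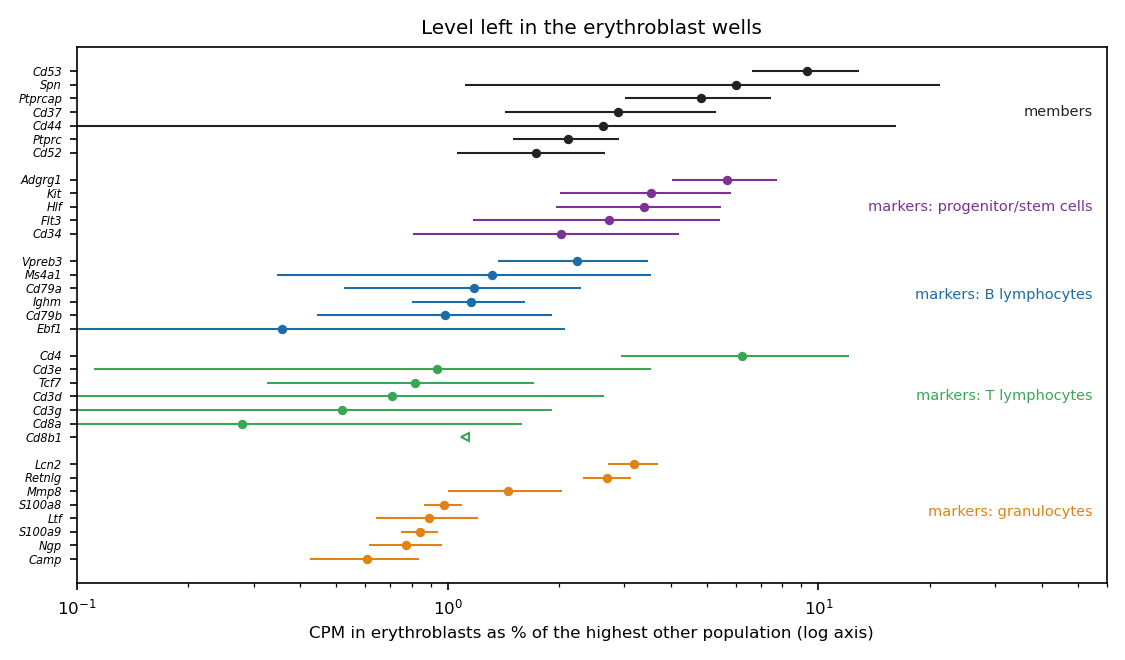
Level in the erythroblasts as a percentage of the highest population (log axis) for the 7 genes, and for each marker of the other 4 populations with at least 50 UMIs, with 95% intervals clipped at the left edge of the axis and an open triangle at the upper bound where the erythroblasts had no UMI. With this denominator Cd53 at 9.34% is the point farthest to the right, followed by Cd4 at 6.24%, and their intervals overlap.

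CD44 was stained on all cells, and its fluorescence was part of the erythroblast gate. Its median in arbitrary units was 19218.5 for granulocytes (lowest 2037, highest 25820), 6495 for progenitor/stem cells (3578 to 13261), 2526.5 for erythroblasts (976 to 6170), 1820 for B lymphocytes (447 to 23088, the highest being well A8) and 234 for T lymphocytes (20 to 4542). The granulocytes and progenitor/stem cells had the highest values for protein and transcript, although for the transcript neither step from the granulocytes to the progenitor/stem cells nor from these to the B lymphocytes exceeded counting error. The erythroblasts and B lymphocytes stood in the opposite order: the erythroblasts had 1.39 times the median fluorescence of the B lymphocytes and 1 Cd44 UMI, whereas the B lymphocytes had 3 among 135808 mouse UMIs against 666728. Of these 3 UMIs, 2 came from 1 well, and after thinning 0 wells of either population held one. The order for the transcript is therefore uncertain. From the progenitor/stem cells to the erythroblasts the median fluorescence was 2.57-fold lower and the transcript 22.4-fold lower (3.70 to 914). From the granulocytes to the progenitor/stem cells it was 2.96-fold lower and the transcript 1.70-fold lower (0.935 to 3.06).

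**Figure D4:**
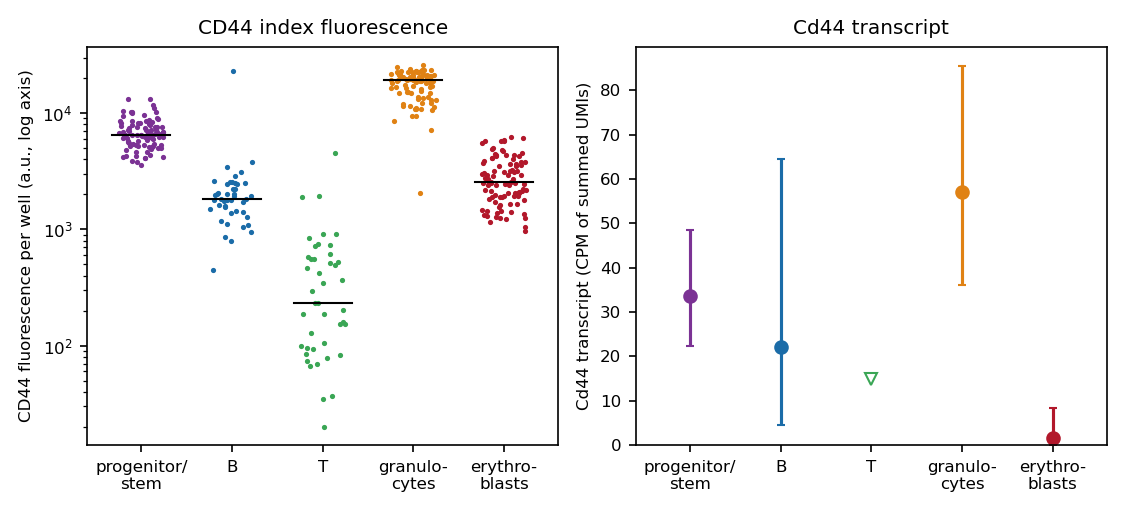
CD44 index fluorescence of each well in arbitrary units on a log axis, with the median of each population, beside the Cd44 transcript level in CPM with 95% exact Poisson intervals, an open triangle marking the level of 3 UMIs where none was counted. Median fluorescence is highest in the granulocytes and lowest in the T lymphocytes, the transcript intervals of the granulocytes and progenitor/stem cells overlap, and the erythroblasts have a median fluorescence of 2526.5 with 1 Cd44 UMI.

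Within a population the transcript could not be tied to the protein at this depth. In the granulocytes, the 48 wells with the higher CD44 fluorescence had 11 Cd44 UMIs and the 48 with the lower had 12, a ratio of CPM of 1.19 (0.475 to 2.94). With 3 groups by fluorescence, the log2 ratio of the highest over the lowest was 1.73 (-0.06 to 3.86). The size thus depended on the split, and both intervals include no difference. In the progenitor/stem cells the ratio was 0.988 (0.438 to 2.29), with 16 and 12 UMIs, and with 3 groups the log2 ratio was -0.95 (-2.49 to 0.54). The 13 granulocyte wells with under 1% of UMIs on granulocyte markers were all among the 48 with the lower fluorescence. They held 0 Cd44 UMIs among 69443 mouse UMIs, where the floor of 3 UMIs stands for 43.2 CPM.

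The other genes of the set were summed by the same division of wells. In the granulocytes all 7 together were 1.30-fold (1.18 to 1.43) higher in the wells with more CD44, with Ptprc at 1.54-fold (1.30 to 1.81) and Cd52 at 1.28-fold (1.11 to 1.49), while the intervals of the other 5 held 1. The 13 wells above were all on the low side, and their part in this was not tested. In the erythroblasts Ptprc was lower in the wells with more CD44, 42.0 CPM against 91.6 CPM (0.458-fold, 0.231 to 0.889). These levels came from 17 and 24 UMIs, and the intervals of all other genes of the set held 1. The 7 together did not differ beyond counting error (0.741-fold, 0.529 to 1.04). B220, a form of CD45, was set beside Ptprc in the B lymphocytes: the 22 wells with the higher B220 fluorescence had 823 CPM of Ptprc and the 22 with the lower 551 CPM, a ratio of 1.49 (0.968 to 2.33) whose interval holds 1, or 0.58 on the log2 scale. Without well A8, a choice made after the data were seen, the remaining wells were divided again at their own median. The log2 ratio was then 1.03 (0.38 to 1.71), an interval that leaves out no difference. The new division also moved another well to the lower side, and the part of well A8 alone was not tested. Counts of 3′ ends do not tell the forms of CD45 apart.

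Genes of related function were compared between erythroblasts and progenitor/stem cells by their own lists. Of 16 other tetraspanin genes, 9 had at least 50 UMIs, and 3 of them were 4-fold or more lower (21.6% of all genes tested were), 3 were 4-fold or more higher (8.26%) and 3 lay between, with a median log2 ratio of -1.44 (all genes -0.73). Tspan4 was 31.4-fold (10.5 to 155) lower and Tspan33 25.9-fold (17.8 to 39.4) higher, and Tspan8 was 43.8-fold (11.7 to 369) higher from 70 UMIs against 2. Cd82 was 5.62-fold (3.91 to 8.26) higher. Tetraspanin genes lay on both sides of Cd53 and Cd37.

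Other sialomucin, mucin-like and GPI-anchored leukocyte surface genes were mostly low in erythroblasts, 5 of the 7 with enough UMIs being 4-fold or more lower (21.6% of all genes tested were), with a median log2 ratio of -3.78. Cd34, a sialomucin of stem cells, was 49.5-fold (23.8 to 124) lower, Laptm5, a lysosomal membrane protein of leukocytes, 19.1-fold (12.4 to 31.2) lower and Emb, an immunoglobulin superfamily glycoprotein, 22.4-fold (11.6 to 49.5) lower. Cd34 is also among the progenitor/stem cell markers, and its antigen was not part of that gate. The exception on the high side was Cd24a, the GPI-anchored heat stable antigen also found on red cell precursors, at 12.9-fold (7.96 to 22.3) higher.

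Red cell surface genes were the reverse, with 10 of 11 at 4-fold or more higher (8.26% of all genes tested were) and a median log2 ratio of 3.75. Ermap, an erythroid membrane protein that carries the Scianna blood group, was 93.9-fold (36.3 to 347) higher, the Rh-associated gene Rhag 29.2-fold (18.9 to 47.5) and the Rh blood group gene Rhd 28.7-fold (21.0 to 40.3). Cd47, which marks cells as self for phagocytes and is carried by leukocytes as well, was 1.10-fold (1.01 to 1.20) higher.

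Of 8 cytoplasmic partners of CD43, CD44 and CD45, 7 had at least 50 UMIs. Among these 7, 5 were 4-fold or more lower (21.6% of all genes tested were), and the median log2 ratio was -2.99. Ank1, the gene left out, ran the other way with 40 UMIs in erythroblasts and 0 in progenitor/stem cells (at least 13.0-fold higher by its interval). Sptbn1, a spectrin found outside red cells, was 46.1-fold (15.5 to 226) lower, the actin regulator Coro1a 11.8-fold (8.18 to 17.5) and the spectrin Sptan1 10.8-fold (5.69 to 23.0). The 3 ERM linkers, which join CD43 and CD44 to actin, differed among themselves: Msn was 4.33-fold (2.94 to 6.57) lower, Rdx was within counting error at 1.21-fold lower (0.980 to 1.51) and Ezr was 1.80-fold (1.40 to 2.32) higher. Among the CD45 substrates, other phosphatases and galectins only 4 of 17 genes reached 50 UMIs. The phosphatase gene Ptpn18 was 23.2-fold (12.1 to 51.4) lower and Ptpn6, which encodes SHP-1, 6.67-fold (4.02 to 11.8) lower. Csk, the kinase that opposes CD45 on Src family kinases, was 3.09-fold (2.05 to 4.78) lower, and the widely expressed receptor phosphatase gene Ptpra 1.20-fold lower (0.833 to 1.74).

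**Figure D5:**
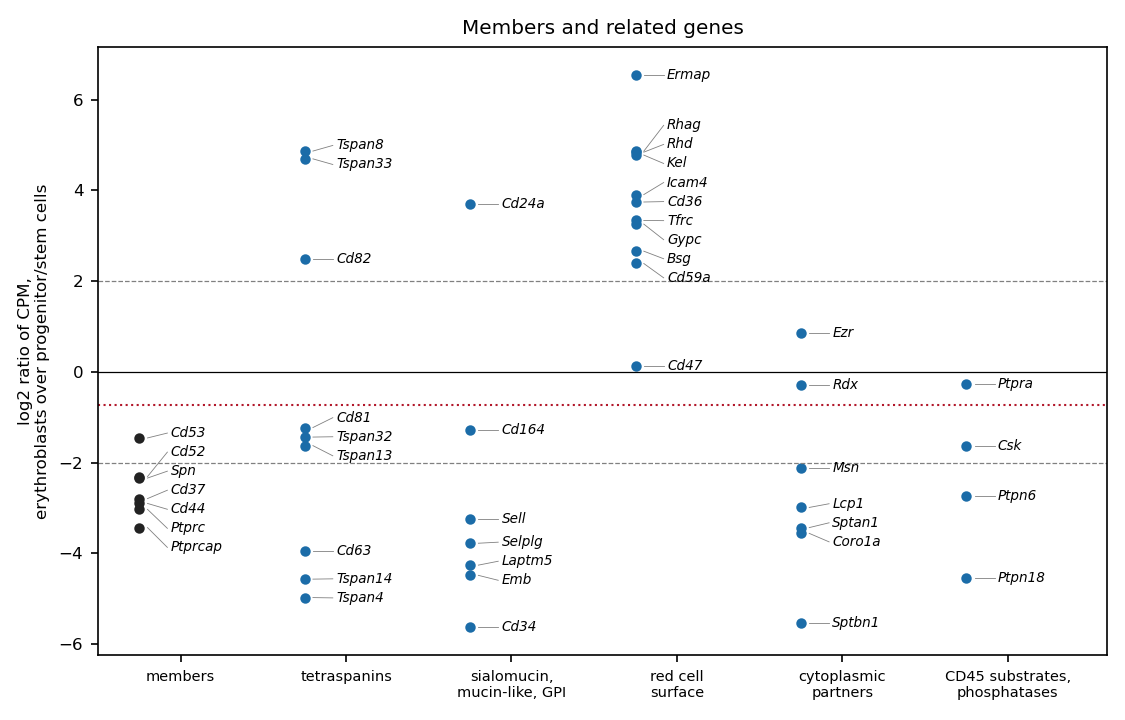
Log2 ratio of CPM in erythroblasts over progenitor/stem cells for the 7 genes and for the genes of 5 related lists with at least 50 UMIs, sums under 3 UMIs being set to 3. The dotted line is the median of all genes (-0.73) and the dashed lines a 4-fold difference. The 7 genes lie below the dotted line, and 10 of the 11 red cell surface genes lie above the upper dashed line.

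Genes with the most similar pattern over the 5 populations were taken by the Pearson correlation of log2(CPM + 10), a description over 5 points that share 1 plate and 1 mouse. The best matches of Ptprc were Arhgap45 (r = 0.998) and Edem1 (0.995), those of Ptprcap were Gm7964 (0.996) and Tnks (0.996), and those of Cd37 were Brpf1 (0.994) and Crebrf (0.993). Cd52 and Cd53 were each the best match of the other (0.998), followed by Gmip (0.993) for Cd52 and Samd9l (0.997) for Cd53. For Cd44 they were Higd2a (0.994) and Csf2rb, and for Spn Frmd8 (0.992) and Otulinl (0.986), from few UMIs of the member. Within the set, Ptprc correlated with Cd53 at 0.953 and with Cd52 at 0.947, and Ptprcap with Ptprc at 0.542.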

How the data were processed

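The counts that the authors deposited are whole-number UMI counts for each gene and well, made with scPipe, which aligns reads (by default with Rsubread), assigns them to exons, demultiplexes wells and collapses UMIs. Of the aligner version, genome build, annotation and strand, none is stated in the sources used here. Wells linked columns to samples, and 9 columns without a sample were left out. Median depth per well was 3028.5 to 7959 mouse UMIs by population. UMIs were summed per population and divided by those on mouse genes, without the 74 ERCC rows. Intervals are exact Poisson for levels and exact conditional binomial for ratios. For counts of genes at 4-fold and for medians, sums under 3 UMIs were set to 3, and a gene at 3 or less on both sides was left out. Cells of 1 mouse are not replicates, so no test was run. TMM factors came from edgeR 4.0.16 and size factors from scran 1.30.0, with Python 3.11.15 and scipy 1.17.1 for the rest. The members and lists were chosen with earlier results of these data known. Named are the 7 members, the 2 genes most like each, and genes from the 3 lowest and 3 highest of each related list. The scripts were tested on simulated data. A gene of the red cell surface list is not reported here, and the list's values were computed without it.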

Additional observations from a re-analysis of the deposited data

How the results depend on the processing

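Of 131 values under alternative settings, 115 stayed within the counting error or 1.5 times of the value reported, and 16 moved. Some of the 115 could not move. Leaving out well A8 does not touch comparisons without the B lymphocytes, and the counts with no minimum of UMIs were carried over. The highest population was also called unchanged where 5 of the 7 genes kept theirs, per well and per 1000 ERCC UMIs. No count or median of the 7 genes turned its direction. The log2 ratio of Cd44 between progenitor/stem cells with more and less CD44 fluorescence, -0.02, changed sign to 0.11 as the mean of the CPM of the wells, and the interval of the value reported held 0. With TMM factors, 3 genes were 4-fold or more lower in erythroblasts than in progenitor/stem cells, and with scran size factors 2, where the median log2 ratio was -1.78. The medians against the B lymphocytes were -3.47 with TMM, -3.06 per well and -3.02 per 1000 ERCC UMIs, and those against the T lymphocytes -3.27 with TMM, -3.24 with scran and -3.33 per 1000 ERCC UMIs. All these scalings shift every gene alike, so the distance from the median of all genes (-2.06, -4.58, -4.13 and -4.01 against progenitor/stem cells, B lymphocytes, T lymphocytes and granulocytes) cannot change under them. Against the granulocytes, thinning gave -4.42, and a distance of -5.02. With no minimum of UMIs, 14.7%, 51.3%, 15.9% and 10.7% of all genes were 4-fold or more lower, in the same order, including genes set to 3 UMIs on both sides. Cd44 had a log2 ratio of 1.73 between the highest and lowest of 3 groups of granulocytes by CD44 fluorescence. Ptprc by B220 had 1.03 without well A8. Under scalings added after the data had been seen, what remained in the erythroblasts was 4.56% of the highest level without haemoglobin genes and Gm42418, 5.43% with TMM, 5.80% with scran, 5.68% per well and 6.53% per 1000 ERCC UMIs. No paired analysis was possible because each population is 1 sample of 1 mouse, and no replicate could be left out. Depth limits Cd44 and Spn most, with 55 and 46 UMIs in all wells together. The cause of the moves was not tested beyond the rescaling itself.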

Other observations

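Forward scatter, which follows cell size, was also recorded for each well. In the granulocytes the 47 wells with the higher scatter had 4002 CPM of the 7 genes together and the 49 with the lower 4799 CPM, a ratio of 0.834 (interval 0.759 to 0.917). The progenitor/stem cells had 1329 and 1554 CPM (0.855, 0.762 to 0.959). In the T lymphocytes (0.939, 0.836 to 1.05), B lymphocytes (1.08, 0.885 to 1.31) and erythroblasts (0.881, 0.630 to 1.23) the intervals held 1. Divided by CD44 fluorescence instead, the T lymphocytes had 5480 CPM in the wells with more and 6261 CPM in those with less (0.875, 0.779 to 0.984). These ratios compare cells of 1 mouse and cover counting error only.

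The 13 granulocyte wells with under 1% of their UMIs on granulocyte markers had a median CD44 fluorescence of 11016 (2037 to 16459), against 19492 (10777 to 25820) in the other 83. They held 109 Ptprc, 94 Cd52, 36 Cd53, 8 Cd37, 3 Ptprcap and 1 Spn UMIs, and 0 of Cd44. Their identity was not tested.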
